A study of Brassica rapa subsp. pekinensis with 4 samples.

Results

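Abscisic acid (ABA) is a plant hormone that is best known for closing stomata, for keeping seeds dormant and for the responses of shoots to drought, salt and cold. The genes described here are the *Brassica rapa* genes whose Arabidopsis match, as given in the deposited count tables, is one of 40 loci of ABA synthesis, breakdown and signalling. Every gene with such a match was taken. Of the 36698 genes listed, 74 matched, and they covered 38 of the 40 loci, because *NCED6* and *PYL1* had no matching gene. Most loci with a match had more than 1 gene in *B. rapa*, up to 5 for *PYR1*, and 16 had a single gene.

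The libraries were made from shoot polyA RNA of Chinese cabbage line “4004”, an inbred line that bolts early. Of the 4 libraries, 2 came from plants without vernalization (0D Ver), 2 weeks of age, kept at 23 °C under a day of 16 h light and 8 h dark. The other 2 came from plants vernalized for 35 days (35D Ver) in cold of 5 °C under 12 h light and 12 h dark, and these plants were 7 weeks old. Cold, age and day length therefore changed together between the conditions and cannot be told apart, and the line is a single genotype. Unvernalized plants of the older age were not analysed here, and the start of the cold is put after 1 week by the methods and after 2 weeks by the labels. The study compared these conditions to find genes whose expression follows vernalization, the long cold after which this plant can flower.

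Values are normalized counts, that is, the deposited numbers of reads per gene after scaling between libraries, and n = 2 libraries per condition throughout. The deposited numbers summed to between 17221386 and 23428420 per library. A gene was called when its Benjamini-Hochberg adjusted p was below 0.05 in a limma fit over all 29691 tested genes, and log2 fold changes are 35D Ver minus 0D Ver on the log2(normalized count + 1) scale, which understates the change of low genes. Many genes differed between the conditions, with 40.6% of all tested genes called, 20.1% higher and 20.5% lower under 35D Ver. Replicates differed beyond sampling noise, with a chi-square per degree of freedom of 9.30 and 10.2 within the conditions and of 71.3 to 80.4 between them. The methods call the replicates biological, but the labels do not say that they came from separate plantings, so adjusted p-values measure the spread between these libraries only. Of the marker genes checked, those of leaf photosynthetic tissue summed to between 76481 and 107149 normalized counts per library, with 2 of 8 genes called higher, both of *GAPA*, and 1 lower, of *PSAD1*, and the 5 root marker genes had at most 2 deposited counts each in any library, where 1 was the lowest number in each table. Floral organ markers summed to 443 and 609 normalized counts under 0D Ver and to 487 and 375 under 35D Ver, with 3 of 7 tested genes called higher, all of *PI* and with log2 fold changes between 1.14 and 1.23. The *PI* genes had 6 to 9 deposited counts under 0D Ver and reached the 10 counts needed for testing only in the 35D Ver libraries. Their calls are therefore not independent support for an increase of floral markers. The part of the leaf, root and floral markers in the values of the ABA genes was not tested. In bulk tissue, fewer cells of a type and less RNA per cell cannot be told apart.

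In Arabidopsis, ABA is made from carotenoids. Zeaxanthin epoxidase (*ABA1*) acts early in plastids, the NCED dioxygenases carry out the cleavage that is regarded as rate-limiting, and *ABA2*, *AAO3* and the cofactor enzyme *ABA3* complete the synthesis in the cytosol. The CYP707A hydroxylases break ABA down. Inside the cell, ABA is bound by PYR/PYL/RCAR receptors, which then inhibit clade A protein phosphatases 2C (PP2Cs). Without ABA these phosphatases hold SnRK2 kinases inactive, and once released the kinases phosphorylate ABF and ABI5-type transcription factors that switch on ABA-responsive genes. The roles given below for single genes are those known from Arabidopsis.

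Of the 74 ABA genes, 67 passed the filter on low counts and were tested. Among these, 40 were called (59.7%), with 14 higher (20.9%) and 26 lower (38.8%) after vernalization, against the shares over all genes given above. With an absolute log2 fold change of at least 1 in addition, 22 genes (32.8%) were called, 10 higher (14.9%) and 12 lower (17.9%), against 13.7% of all tested genes, 5.97% higher and 7.76% lower. The share called was thus above that of all genes with either rule, and without the fold rule the excess lay among the genes that fell. Because the loci were chosen with earlier results of these data known, this excess is not independent support for a change of the pathway. The median log2 fold change of the tested ABA genes was -0.28, against -0.01 over all tested genes. In 53 of the 67 genes (79.1%) the 35D Ver libraries did not overlap the 0D Ver libraries, which is near the 73.1% of all tested genes. With the study's minimum of 500 normalized counts added to the fold rule, 4 genes remained, 2 of *CYP707A3* and 2 of *PP2CA*, all lower, which is 5.97% of those tested, against 3.1% over all genes. The 7 genes that were not tested had at most 10 deposited counts in any library: the *NCED5* gene, 1 of the *NCED9* genes, 1 of the *PYL7* genes, 1 of the *ABI1* genes and the only genes of *AHG1*, *HAI3* and *ABI3*, the last of which is a regulator of seed maturation.

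**Figure D1:**
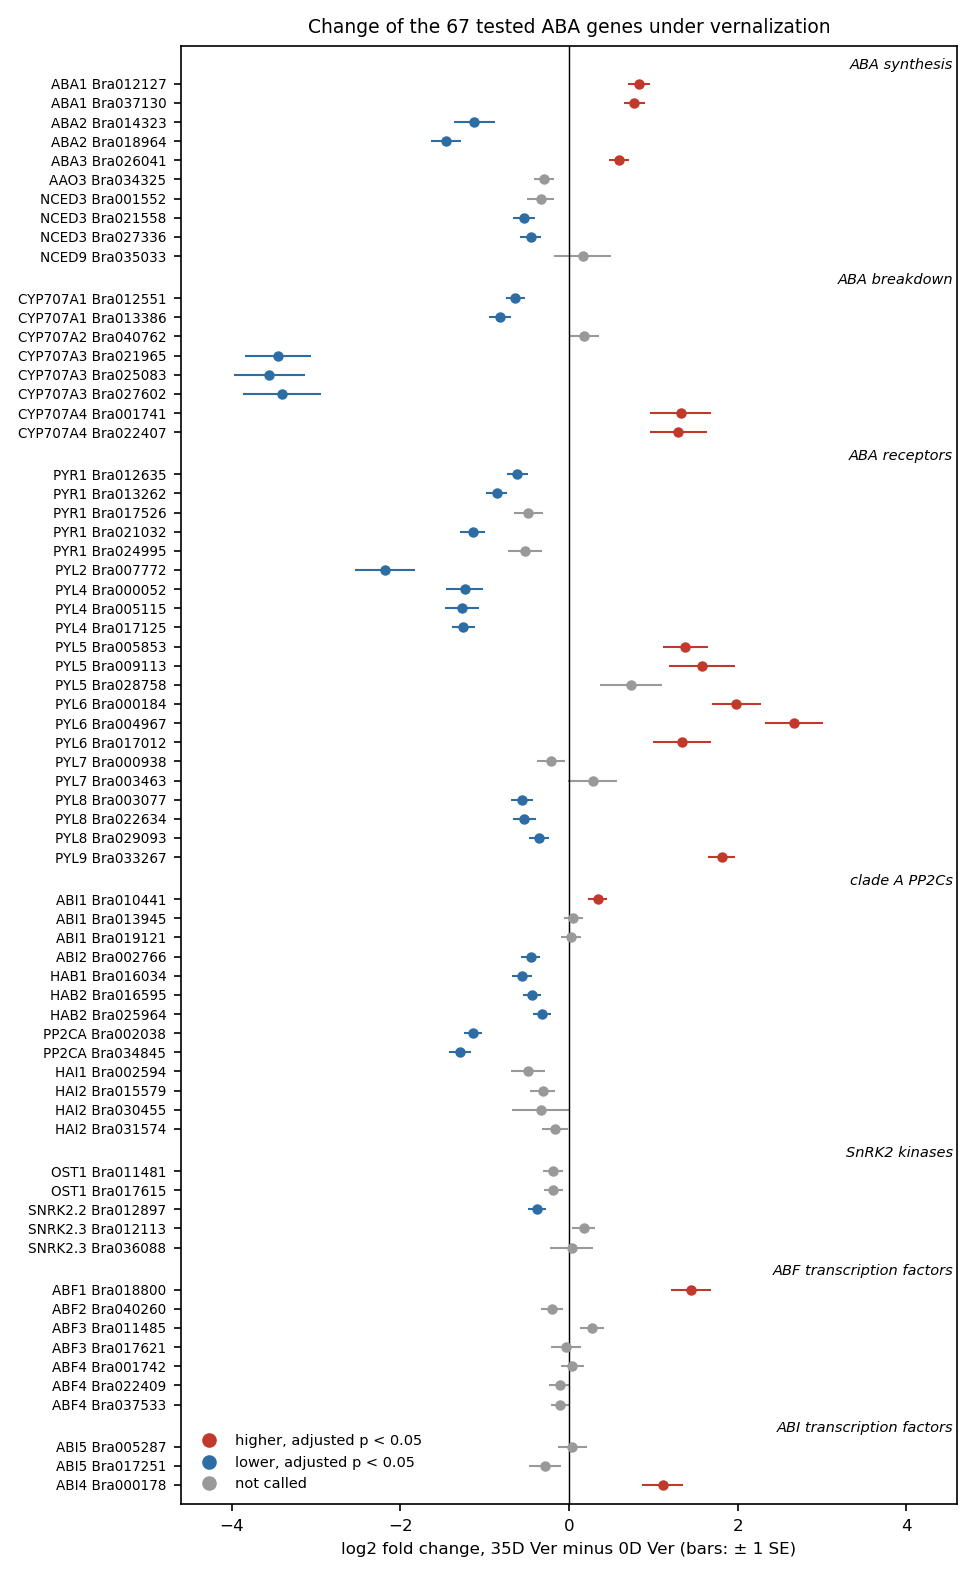
Log2 fold change (35D Ver minus 0D Ver, x axis) of the 67 tested ABA genes, grouped by role, with bars of 1 standard error on each side. Red genes were called higher (14), blue genes lower (26) and grey genes were not called; the *CYP707A3* genes lie lowest, near -3.5, and a *PYL6* gene highest, at 2.66.

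The genes of ABA synthesis did not move in 1 direction. Of 10 tested genes, 3 rose, 4 fell and 3 were not called, with a median log2 fold change of -0.32. Over all tested genes, 20.1% were called higher and 20.5% lower. The early and the cofactor steps rose, whereas the cytosolic dehydrogenase *ABA2* and 2 of the 3 copies of *NCED3*, the dioxygenase induced by drought, fell.

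Both *ABA1* (AT5G67030) genes rose. Bra012127, the synthesis gene with the most reads, had 9015 and 9660 normalized counts under 0D Ver and 18181 and 15165 under 35D Ver. Its mean went from 9337 ± 457 to 16673 ± 2133 (SD, n = 2), which is a log2 fold change of 0.83 (SE 0.13, limma adjusted p = 0.00167). The conditions did not overlap, and the other copy, Bra037130, had a log2 fold change of 0.77 (limma adjusted p = 0.00178). *ABA3* (AT1G16540; Bra026041), which makes the sulfurylated molybdenum cofactor that the last enzyme needs, rose by less, with a log2 fold change of 0.60 (limma adjusted p = 0.00448).

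*ABA2* (AT1G52340) encodes the short-chain dehydrogenase that turns xanthoxin into abscisic aldehyde, and both of its genes fell. Bra018964 had 348 and 301 normalized counts under 0D Ver and 99.8 and 138 under 35D Ver, so that both vernalized libraries lay far below the unvernalized ones. The mean fell from 325 ± 33.1 to 119 ± 26.7 (SD, n = 2) at a log2 fold change of -1.46 (SE 0.18, limma adjusted p = 0.00044). Bra014323, with far fewer reads, had 39.2 and 36.6 normalized counts under 0D Ver and 16.5 and 17.3 under 35D Ver. Its log2 fold change of -1.12 (SE 0.24, limma adjusted p = 0.00702) was close to that of the first copy.

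The 3 *NCED3* (AT3G14440) genes changed by less than 2-fold, with log2 fold changes of -0.53 for Bra021558 (limma adjusted p = 0.013), -0.46 for Bra027336 (limma adjusted p = 0.0167) and -0.34 for Bra001552 (limma adjusted p = 0.125). The calls of the first 2 genes were not stable to the loss of a library. Bra021558 had an adjusted p of 0.0723 without 0D Ver replicate 1 and of 0.0796 without 35D Ver replicate 1. For Bra027336 it was 0.0623 without 0D Ver replicate 1, 0.0633 without 0D Ver replicate 2 and 0.102 without 35D Ver replicate 2. *AAO3* (AT2G27150; Bra034325), the aldehyde oxidase of the last step, had a log2 fold change of -0.30 (limma adjusted p = 0.0735) and the tested *NCED9* gene, Bra035033, one of 0.17 (limma adjusted p = 0.724), and neither was called. In Arabidopsis, *NCED3*, *ABA2* and *AAO3* act in vascular tissue. Marker genes of phloem companion cells also fell here, 9 of 9 tested, against 20.5% of all tested genes. Their sums were 19605 and 19046 normalized counts under 0D Ver and 11986 and 13807 under 35D Ver. The part of these markers in the decreases of *NCED3* and *ABA2* was not tested.

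Genes of ABA breakdown held the largest decreases among the ABA genes, and they split by locus. All 8 genes of the 4 *CYP707A* loci were tested. The 3 copies of *CYP707A3* and the 2 copies of *CYP707A1* fell, the 2 copies of *CYP707A4* rose and *CYP707A2* was not called. The median log2 fold change of the list was -0.72. Over all tested genes, 20.1% were called higher and 20.5% lower.

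*CYP707A3* (AT5G45340) is the hydroxylase known in Arabidopsis for lowering ABA after stress and at high humidity. Bra021965 had 858 and 364 normalized counts under 0D Ver and 50.4 and 50.1 under 35D Ver. Bra025083 had 664 and 269 under 0D Ver and 36.6 and 33.7 under 35D Ver, and Bra027602 had 925 and 369 under 0D Ver and 55.9 and 52.9 under 35D Ver. In each copy the vernalized replicates were nearly equal, while 0D Ver replicate 1 was higher than replicate 2, by 2.36-fold, 2.47-fold and 2.51-fold in the same order. The mean was 12.2-fold lower under 35D Ver for Bra021965, at a log2 fold change of -3.45 (SE 0.40, limma adjusted p = 0.00189). For Bra025083 it was 13.3-fold lower, at a log2 fold change of -3.55 (SE 0.42, limma adjusted p = 0.00196), and for Bra027602 11.9-fold lower, at -3.40 (SE 0.46, limma adjusted p = 0.00602). The size of the decrease depends on which unvernalized library is used. Without 0D Ver replicate 1 the log2 fold changes were -2.84, -2.91 and -2.75, and without 0D Ver replicate 2 they were -4.06, -4.20 and -4.06. Without either 35D Ver library, the log2 fold changes stayed between -3.58 and -3.35, but the calls were lost, at adjusted p-values between 0.187 and 0.242.

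The *CYP707A1* (AT4G19230) genes fell by less and more evenly. Bra012551, the breakdown gene with the highest mean count, had 562 and 582 normalized counts under 0D Ver and 394 and 345 under 35D Ver. The conditions did not overlap, and the log2 fold change was -0.63 (SE 0.12, limma adjusted p = 0.0034). The other copy, Bra013386, had a log2 fold change of -0.82 (limma adjusted p = 0.00174).

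*CYP707A4* (AT3G19270) moved the other way. Bra001741 had 48.1 and 22 normalized counts under 0D Ver and 69.6 and 99.4 under 35D Ver, and Bra022407 had 74.6 and 36.6 under 0D Ver and 107 and 158 under 35D Ver. Both vernalized libraries lay above both unvernalized ones in each copy, with log2 fold changes of 1.33 (SE 0.36, limma adjusted p = 0.0216) and 1.30 (SE 0.34, limma adjusted p = 0.0204). These calls rest on single libraries. Without 0D Ver replicate 2 the log2 fold changes dropped to 0.78 and 0.80 and the adjusted p-values were 0.071 and 0.0567, and without 35D Ver replicate 2 the latter were 0.115 and 0.116. Without 0D Ver replicate 1 the log2 fold changes were 1.86 and 1.79. *CYP707A2* (AT2G29090; Bra040762), which acts mainly in seeds in Arabidopsis, had a log2 fold change of 0.18 (limma adjusted p = 0.453), with replicates of 518 and 352 normalized counts under 35D Ver. Without 35D Ver replicate 2 it was called, at a log2 fold change of 0.47 (limma adjusted p = 0.0372).

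**Figure D2:**
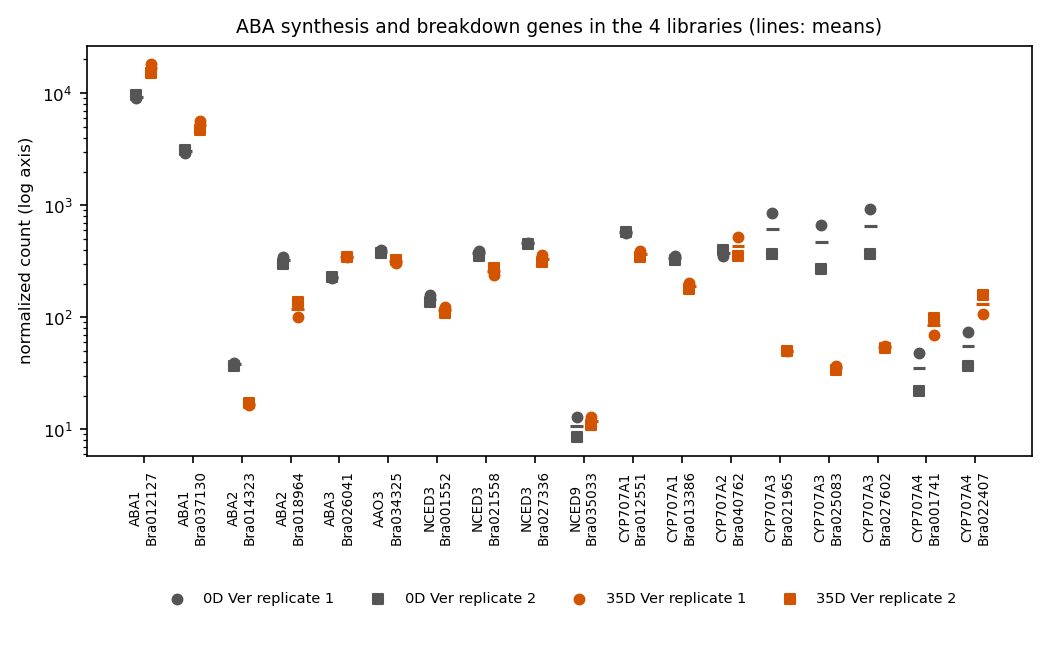
Normalized counts (log axis) of the tested genes of ABA synthesis and breakdown in each library, with dark symbols for 0D Ver, orange symbols for 35D Ver, circles for replicate 1, squares for replicate 2 and short lines for the means. The *CYP707A3* genes stand out, with 269 to 925 normalized counts under 0D Ver and 33.7 to 55.9 under 35D Ver, and their 0D Ver replicates lie apart.

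Among the receptors, different loci moved in opposite directions. Of 22 genes, 21 were tested, of which 6 rose and 10 fell, and 5 were not called, against 20.1% higher and 20.5% lower over all tested genes. All of the 6 that rose and 5 of the 10 that fell passed the fold rule, against 5.97% higher and 7.76% lower over all tested genes. The genes that rose belonged to *PYL5*, *PYL6* and *PYL9*, and those that fell to *PYR1*, *PYL2*, *PYL4* and *PYL8*. PYR1 and PYL2 form dimers without ABA in Arabidopsis, whereas PYL4, PYL5, PYL6, PYL8 and PYL9 are monomers, so both directions occurred among the monomeric receptors.

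The 3 *PYL6* (AT2G40330) genes rose. Bra004967 had 9.81 and 15.9 normalized counts under 0D Ver and 62.3 and 115 under 35D Ver, Bra000184 had 15.7 and 28.1 under 0D Ver and 76.9 and 96.6 under 35D Ver, and Bra017012 had 25.5 and 57.4 under 0D Ver and 94.3 and 103 under 35D Ver. The conditions did not overlap in any of the copies. The log2 fold changes were 2.66 (SE 0.35, limma adjusted p = 0.000666), 1.99 (SE 0.29, limma adjusted p = 0.00112) and 1.34 (SE 0.34, limma adjusted p = 0.0168) in the same order. The first is the largest increase among the ABA genes. The third was not called without 35D Ver replicate 1 (adjusted p = 0.0744) or without 35D Ver replicate 2 (adjusted p = 0.102), and its log2 fold change ranged from 0.76 to 1.91 with each library left out.

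Of the *PYL5* (AT5G05440) genes, 2 were called. Bra005853 had 10.8 and 12.2 normalized counts under 0D Ver and 33.0 and 30.1 under 35D Ver, a log2 fold change of 1.38 (SE 0.27, limma adjusted p = 0.00416). Bra009113 had 6.87 and 15.9 under 0D Ver and 39.4 and 28.3 under 35D Ver, a log2 fold change of 1.58 (SE 0.39, limma adjusted p = 0.0131). The vernalized libraries were higher in both genes. The call of Bra009113 was lost without 0D Ver replicate 1, at a log2 fold change of 1.02 (adjusted p = 0.0603), and without 35D Ver replicate 1 (adjusted p = 0.0544). This gene had 7 and 13 deposited counts under 0D Ver. It reached the counts needed for testing only with the 35D Ver libraries. Its call, which is included in the numbers of genes that rose, is therefore not independent support for an increase. The third copy, Bra028758, had a log2 fold change of 0.74 (limma adjusted p = 0.14).

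*PYL9* (AT1G01360), which has a single gene, encodes a receptor that in Arabidopsis has been tied to leaf senescence under drought. It had 102 and 117 normalized counts under 0D Ver and 437 and 341 under 35D Ver in Bra033267. Its mean rose 3.55-fold, from 110 ± 10.7 to 389 ± 67.9 (SD, n = 2) at a log2 fold change of 1.81 (SE 0.16, limma adjusted p = 9.23e-05). This was the smallest adjusted p among the ABA genes.

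*PYL4* (AT2G38310) fell in all 3 copies and by nearly the same factor. Bra017125 had 275 and 292 normalized counts under 0D Ver and 114 and 123 under 35D Ver, a log2 fold change of -1.25 (SE 0.14, limma adjusted p = 0.000243). Bra000052 had 78.5 and 73.2 under 0D Ver and 27.5 and 36.5 under 35D Ver, and Bra005115 had 91.3 and 75.7 under 0D Ver and 33.9 and 33.7 under 35D Ver. Their log2 fold changes were -1.23 (SE 0.22, limma adjusted p = 0.00276) and -1.27 (SE 0.20, limma adjusted p = 0.00159).

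*PYL2* (AT2G26040) had few reads. Its gene, Bra007772, had 18.6 and 20.7 normalized counts under 0D Ver and 2.75 and 4.56 under 35D Ver, a log2 fold change of -2.18 (SE 0.36, limma adjusted p = 0.00193). The vernalized values stand for 3 and 5 deposited counts, near the lowest number in the tables, so the size of this decrease is uncertain. The gene reached the counts needed for testing only in the 0D Ver libraries. Its call, which is included in the numbers of genes and loci that fell, is therefore not independent support for a decrease.

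All 5 *PYR1* (AT4G17870) genes had negative log2 fold changes, from -1.14 to -0.48, and 3 of them were called. Bra021032 had 238 and 264 normalized counts under 0D Ver and 118 and 108 under 35D Ver, a log2 fold change of -1.14 (SE 0.14, limma adjusted p = 0.00051). Bra013262 and Bra012635 had log2 fold changes of -0.86 (limma adjusted p = 0.000871) and -0.61 (limma adjusted p = 0.0046), while Bra017526, at -0.48, and Bra024995, at -0.52, were not called (limma adjusted p = 0.0518 and 0.073). Both of the latter were called without 0D Ver replicate 1, with adjusted p-values of 0.0188 and 0.0154, and Bra017526 also without 35D Ver replicate 1 (0.0484).

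The 3 *PYL8* (AT5G53160) genes fell by less than 2-fold, with log2 fold changes of -0.56, -0.53 and -0.35 for Bra003077, Bra022634 and Bra029093 (limma adjusted p = 0.00876, 0.0147 and 0.0426). *PYL8* is known for ABA responses in roots. The calls of the first 2 genes were lost without 0D Ver replicate 2 (adjusted p = 0.0639 and 0.103), and that of Bra029093 was lost without 0D Ver replicate 1, 0D Ver replicate 2 or 35D Ver replicate 1 (adjusted p = 0.117, 0.135 and 0.259). The receptor gene with the highest mean count, Bra000938 of *PYL7* (AT4G01026), had 898 and 807 normalized counts under 0D Ver and 609 and 884 under 35D Ver. These ranges overlapped and it was not called, at a log2 fold change of -0.21 (SE 0.17, limma adjusted p = 0.35), although without 35D Ver replicate 2 the log2 fold change was -0.47 (adjusted p = 0.0283). The other tested *PYL7* gene, Bra003463, had a log2 fold change of 0.28 (limma adjusted p = 0.466), and of 0.75 without 35D Ver replicate 1 (adjusted p = 0.0355).

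**Figure D3:**
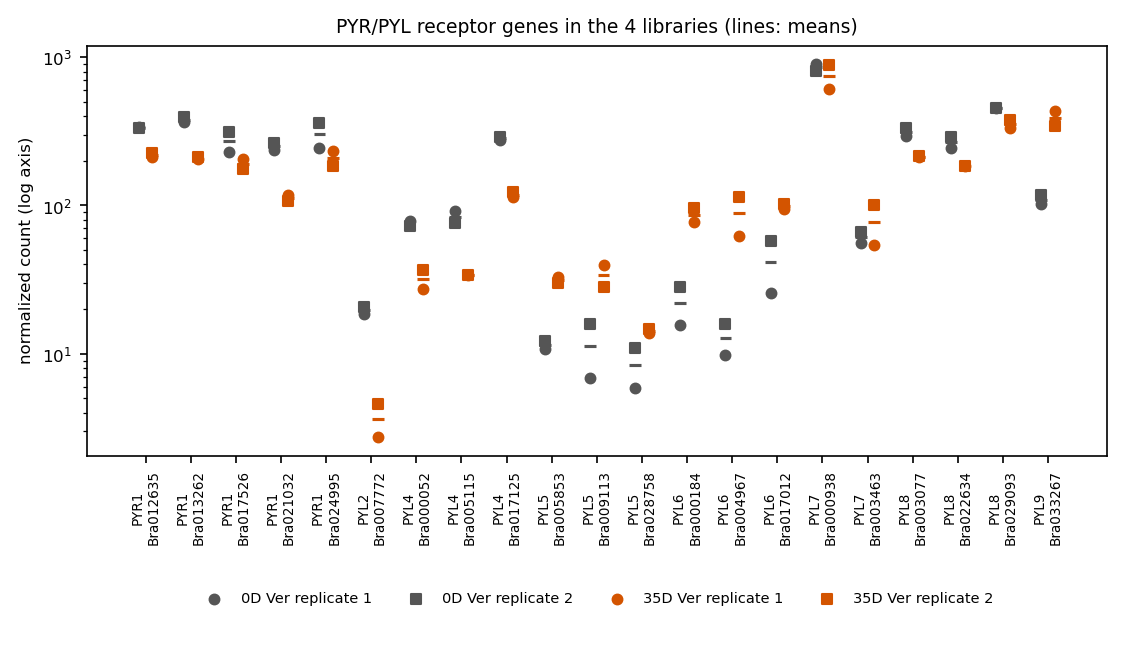
Normalized counts (log axis) of the 21 tested PYR/PYL receptor genes in each library, with dark symbols for 0D Ver, orange symbols for 35D Ver, circles for replicate 1, squares for replicate 2 and short lines for the means. The orange symbols lie above the dark ones for *PYL5*, *PYL6* and *PYL9* and below them for *PYR1*, *PYL2*, *PYL4* and *PYL8*; those of *PYL7* overlap.

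The clade A PP2Cs, the co-receptors that block the pathway without ABA, fell or were not called, with 1 exception. Of 16 genes, 13 were tested, of which 1 rose, 6 fell and 6 were not called, with a median log2 fold change of -0.34. Over all tested genes, 20.1% were called higher and 20.5% lower. The decreases beyond 2-fold were those of *PP2CA* (AT3G11410), a phosphatase that also acts on ion channels of guard cells. Bra002038 had 2983 and 2761 normalized counts under 0D Ver and 1263 and 1346 under 35D Ver, and its mean fell from 2872 ± 157 to 1304 ± 58.3 (SD, n = 2) at a log2 fold change of -1.14 (SE 0.10, limma adjusted p = 0.000109). Bra034845 had 3282 and 2584 under 0D Ver and 1232 and 1148 under 35D Ver, with a log2 fold change of -1.29 (SE 0.13, limma adjusted p = 0.000179). In both genes the vernalized libraries lay far below the unvernalized ones.

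*ABI1* (AT4G26080), the phosphatase gene first found through an ABA-insensitive mutant, behaved differently. Bra019121, which had the highest mean count of the list, had 3827 and 4390 normalized counts under 0D Ver and 4307 and 4032 under 35D Ver. The ranges overlapped, and the log2 fold change was 0.02 (SE 0.12, limma adjusted p = 0.887). Bra013945 had a log2 fold change of 0.05 (limma adjusted p = 0.751). Bra010441 was called higher at 0.34 (limma adjusted p = 0.0395), but without 0D Ver replicate 1, 35D Ver replicate 1 or 35D Ver replicate 2 the adjusted p was 0.262, 0.0786 and 0.0625.

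Smaller decreases were found for *HAB1* (Bra016034, log2 fold change -0.55, limma adjusted p = 0.0061), *ABI2* (Bra002766, -0.46, adjusted p = 0.0139) and *HAB2* (Bra016595, -0.44, adjusted p = 0.0123, and Bra025964, -0.32, adjusted p = 0.0446). These genes encode close relatives of *ABI1* with partly overlapping functions. The call of *HAB1* held with any library left out. That of *ABI2* was lost without 0D Ver replicate 2 (adjusted p = 0.0941) or 35D Ver replicate 1 (0.0848), and that of Bra016595 without 0D Ver replicate 2 (0.0577) or 35D Ver replicate 2 (0.057). For Bra025964 it was lost without any single library, with adjusted p-values from 0.0635 to 0.202. The genes of the HAI group, which ABA itself induces strongly in Arabidopsis, were not called, with log2 fold changes of -0.48 for *HAI1* (limma adjusted p = 0.0889) and between -0.34 and -0.16 for the 3 *HAI2* genes.

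The SnRK2 kinases that ABA activates most had log2 fold changes between -0.38 and 0.17. Against 40.6% of all tested genes called, 1 of their 5 genes was called, that of *SNRK2.2* (AT3G50500), and the other 4 were not. Its gene, Bra012897, had 1700 and 1549 normalized counts under 0D Ver and 1203 and 1288 under 35D Ver, which did not overlap, with a log2 fold change of -0.38 (SE 0.11, limma adjusted p = 0.021). Without 0D Ver replicate 1 or 35D Ver replicate 1 the adjusted p was 0.11 and 0.121. The 2 genes of *OST1*, the kinase of stomatal closure, had log2 fold changes of -0.19 and -0.18 (limma adjusted p = 0.24 and 0.224), and those of *SNRK2.3* 0.17 and 0.04 (limma adjusted p = 0.345 and 0.924). Marker genes of guard cells, where *OST1* acts, summed to 1739 and 1792 normalized counts under 0D Ver and to 1361 and 1523 under 35D Ver. Of the 9 tested markers 1 rose and 3 fell, against 20.1% higher and 20.5% lower over all tested genes. Their part in these values was not tested.

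Of the ABF transcription factors, which bind the ABA-responsive element in promoters, 1 of 7 genes was called, against 40.6% of all tested genes. The called gene was the single gene of *ABF1* (AT1G49720), a factor that cold induces in Arabidopsis. Bra018800 had 204 and 134 normalized counts under 0D Ver and 379 and 540 under 35D Ver, so that both vernalized libraries lay above both unvernalized ones. Its mean rose 2.72-fold, from 169 ± 49.4 to 459 ± 113 (SD, n = 2) at a log2 fold change of 1.44 (SE 0.23, limma adjusted p = 0.00261). *ABF3* had the highest mean count of the list in Bra011485, with 1034 and 1240 normalized counts under 0D Ver and 1544 and 1213 under 35D Ver. These overlapped, and the log2 fold change of 0.27 was not called (SE 0.14, limma adjusted p = 0.165), except without 35D Ver replicate 2, when it was 0.46 (adjusted p = 0.0393). The other genes of *ABF2*, *ABF3* and *ABF4* had log2 fold changes between -0.21 and 0.04.

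The ABI transcription factors are known mainly from seeds and seedlings. *ABI4* (AT2G40220), an AP2-type factor, rose. Bra000178 had 21.6 and 26.9 normalized counts under 0D Ver and 59.5 and 47.4 under 35D Ver, without overlap, with a log2 fold change of 1.11 (SE 0.24, limma adjusted p = 0.00715). *ABI5* (AT2G36270), a bZIP factor that blocks seedling growth under ABA, was not called in either copy. Bra005287 had 177 and 161 normalized counts under 0D Ver and 149 and 201 under 35D Ver, with a log2 fold change of 0.04 (SE 0.17, limma adjusted p = 0.872), and Bra017251 had a log2 fold change of -0.28 (limma adjusted p = 0.26). *ABI3* had 1 or 2 deposited counts in each library and was not tested. Of the seed and embryo markers, 1 of 6 genes had enough reads to be tested, and their sum was 31.4 and 42.7 normalized counts under 0D Ver and 11 and 13.7 under 35D Ver.

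How the counting treated reads that fit several near-identical copies is not given in the sources used here, so the copies of each locus were also summed. Of the 34 loci tested in this way, 21 were called (61.8%), 8 higher and 13 lower, against 40.3% of all 16976 loci, 19.9% higher and 20.4% lower. The loci that rose were *ABA1*, *ABA3*, *CYP707A4*, *PYL5*, *PYL6*, *PYL9*, *ABF1* and *ABI4*. The 13 that fell were *ABA2*, *NCED3*, *CYP707A1*, *CYP707A3*, *PYR1*, *PYL2*, *PYL4*, *PYL8*, *ABI2*, *HAB1*, *HAB2*, *PP2CA* and *SNRK2.2*. Summed over 3 copies, *CYP707A3* had 2436 and 996 normalized counts under 0D Ver and 144 and 137 under 35D Ver, with a log2 fold change of -3.46 (SE 0.46, limma adjusted p = 0.0075). For *PYL6*, the sum of 50.8 and 101 normalized counts under 0D Ver went to 235 and 316 under 35D Ver, a log2 fold change of 1.91 (SE 0.31, limma adjusted p = 0.00304). The summed *ABI1* genes had a log2 fold change of 0.14 and were not called (limma adjusted p = 0.347).

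**Figure D4:**
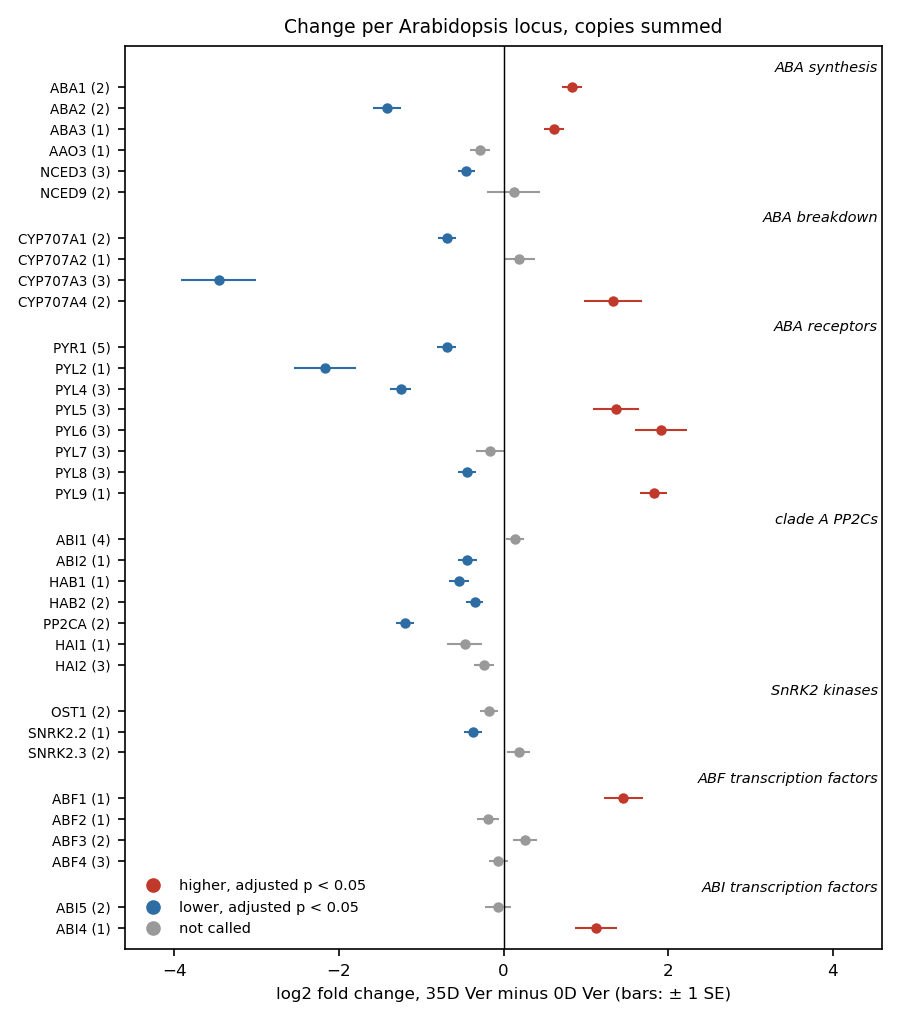
Log2 fold change (35D Ver minus 0D Ver, x axis) of the 34 tested ABA loci after the reads of all copies were summed, with the number of copies in parentheses and bars of 1 standard error on each side. Red loci were called higher (8), blue loci lower (13) and grey loci were not called.

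Of the 21 loci with 2 or more tested copies, 10 had all of these copies called in 1 direction, 4 had some called, 7 had none called and 0 had copies called in both directions. The same was not counted over all loci with several copies, so no trait of the ABA loci is read from these numbers. The difference between the changes of 2 copies was tested for all 48 pairs of ABA copies within a fit over all pairs of the genome, and 5 pairs were called (10.4%), against 22% of 17863 pairs of all loci. They came from 3 loci. The *PYL6* gene Bra004967 rose more than Bra017012, by 1.32 on the log2 scale (limma adjusted p = 0.0486). The *PYR1* gene Bra021032 fell more than Bra012635, by 0.53 (adjusted p = 0.0397), and than Bra017526, by 0.66 (adjusted p = 0.0241). The *ABI1* gene Bra010441 differed from Bra013945 by 0.29 (adjusted p = 0.00859) and from Bra019121 by 0.32 (adjusted p = 0.00372). Without any 1 of the 4 libraries, between 0 and 2 of the 48 pairs were called. Differences that were not called reached 0.84 on the log2 scale, so the test leaves room for unequal change in other loci.

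Beyond the 40 loci, ABA levels are also set by conjugation to glucose and by release from the conjugate. Of 7 tested genes of these steps, 6 fell and 0 rose, against 20.5% lower and 20.1% higher over all tested genes. The only conjugation gene among the 6, Bra031310 of *UGT71B6*, was not called without 0D Ver replicate 2 or 35D Ver replicate 2 (limma adjusted p = 0.223 and 0.17). The gene with the largest decrease was a copy of *BGLU18*, the β-glucosidase that releases ABA from its glucose ester in the endoplasmic reticulum. Bra018969 had 32146 and 58284 normalized counts under 0D Ver and 552 and 303 under 35D Ver. The mean was 106-fold lower under 35D Ver, with a log2 fold change of -6.72 (SE 0.44, limma adjusted p = 0.0013). Without 35D Ver replicate 2 its adjusted p was 0.0532, at a log2 fold change of -6.28. The other copy, Bra030386, and the 3 genes of the vacuolar *BGLU33* also fell, with log2 fold changes of -4.41 and between -1.39 and -0.91. Upstream, 3 of 4 tested genes of xanthophyll supply rose, against 20.1% of all tested genes. The largest of these increases was that of *ABA4*, which acts in neoxanthin synthesis. The *ABA4* gene, Bra034026, had 271 and 334 normalized counts under 0D Ver and 535 and 458 under 35D Ver, a log2 fold change of 0.72 (SE 0.14, limma adjusted p = 0.00484). Of the other genes of xanthophyll supply that rose, Bra013912 of *BCH1* was not called without 0D Ver replicate 1, 0D Ver replicate 2 or 35D Ver replicate 1, at limma adjusted p-values between 0.0834 and 0.139.

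Genes that ABA induces in Arabidopsis changed in both directions. All 21 tested genes of this list were called, 8 higher and 13 lower, against 40.6% of all tested genes, and 13 of them passed the fold rule, against 13.7%. The list was chosen with earlier results of these data known, so these shares are not independent support for an ABA response. The largest decrease was that of *LTP4*, a lipid transfer protein gene, where Bra020322 had 1336 and 1167 normalized counts under 0D Ver and 55.0 and 35.6 under 35D Ver, a log2 fold change of -4.79 (SE 0.20, limma adjusted p = 2.85e-06). Another gene, Bra020323, has the same Arabidopsis match, so reads may be shared. The following genes of the list were chosen after their values were seen. *RD29B*, whose promoter carries the classic ABA-responsive elements, rose in all 3 copies. In Bra022585 it had 3606 and 3826 normalized counts under 0D Ver and 41773 and 32325 under 35D Ver, a log2 fold change of 3.31 (SE 0.15, limma adjusted p = 2.72e-06). *HB7*, a homeodomain factor, rose in both copies with log2 fold changes of 1.78 and 1.78, and the 3 *RD22* genes rose by between 0.51 and 0.67. The dehydrin *RAB18* fell in both copies, with log2 fold changes of -1.26 and -1.36, and the 3 *LTP3* genes had log2 fold changes between -4.65 and -1.98. *RD26* (2 genes), *HB12* (2 genes), *HIS1-3* and *LEA4-5* fell too. The *LEA4-5* gene reached the counts needed for testing only in the 0D Ver libraries, so its call is not independent support for a decrease. Without 0D Ver replicate 1 the *RD26* genes Bra019052 and Bra026353 were no longer called (adjusted p = 0.175 and 0.109), and the former was not called without 35D Ver replicate 1 either (0.111). The *HB12* gene Bra014417 was not called without 0D Ver replicate 2, 35D Ver replicate 1 or 35D Ver replicate 2 (0.0975, 0.0519 and 0.0539), nor was *LEA4-5* without 35D Ver replicate 2 (0.161). Many of these genes also respond to cold or drought without ABA, and ABA itself was not measured in these libraries.

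**Figure D5:**
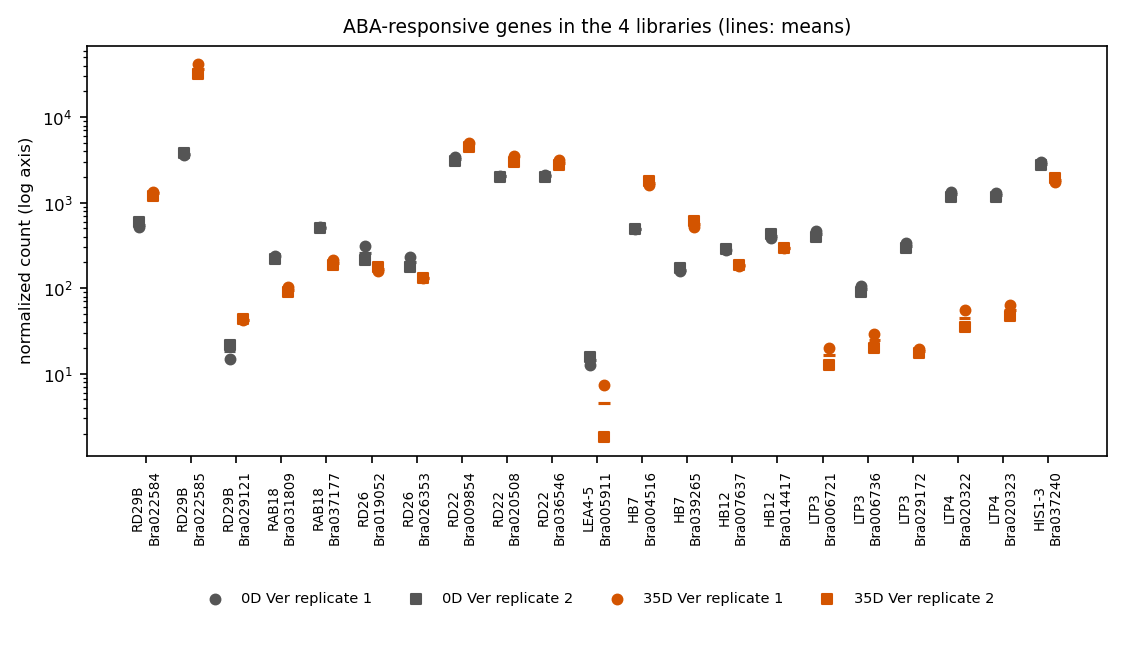
Normalized counts (log axis) of the 21 tested ABA-responsive genes in each library, with dark symbols for 0D Ver, orange symbols for 35D Ver, circles for replicate 1, squares for replicate 2 and short lines for the means. The orange symbols lie above the dark ones in 8 genes (*RD29B*, *RD22* and *HB7*) and below them in 13, most of all in *LTP3* and *LTP4*.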

How the data were processed

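Shoot polyA RNA was sequenced on an Illumina instrument. SolexaQA trimming and alignment with Bowtie2 to the coding sequences of a BRAD gene set of *B. rapa* were done by the authors, who deposited a read count per gene and library, not normalized, with its Arabidopsis match. The handling of reads that fit several genes is not given in the sources used here. The submitters' processing notes name Bowtie2 and edgeR. The deposited values are whole numbers with commas between groups of digits, and these were removed, and their lowest value is 1 in each library while no gene is at 1 in all 4, so 1 was apparently added to each count and no count model was fitted.

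Size factors from the trimmed mean of M-values method (trims of 0.3 and 0.05), computed in R 4.3.3, were applied to the deposited counts. Genes that reached 10 counts (after scaling to the median library) in 2 libraries and 15 counts in total were tested (29691 of 36698) with limma 3.58.1 on log2(normalized count + 1), using its trend and robust options and Benjamini-Hochberg adjustment over all of them. Loci with summed copies and pairs of copies (loci with 2 to 8 tested genes) were fitted in the same way. Plots were drawn with matplotlib 3.10.9.

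Members and gene lists were chosen with earlier results of these data known. Values in each library are given for ABA genes called with an absolute log2 fold change of at least 1, for the gene with the highest mean count in each list and, in other lists, for the called gene with the largest change. Other scalings, filters, a pseudocount of 0.1, 1 subtracted from each count, voom weights, a replicate block and leaving out each library were tried. Gene positions, lengths and sequences were not used here, so levels are not compared between genes.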

Additional observations from a re-analysis of the deposited data

How the results depend on the processing

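The 40 called ABA genes kept their direction under each alternative run, and 23 of them were called under all planned ones, as were 15 of the 22 with a log2 fold change of at least 1. Their number was 38 to 41 with other scalings, filters, pseudocount, 1 subtracted or voom weights, and 30 to 34 with 1 library left out. The number with the fold rule was 16 to 19 with a library left out and 4 with the study's minimum of 500 normalized counts. Called loci numbered 14 to 20 with a library left out. Pairs of copies were the least stable result: 5 pairs were called, against 2 with voom weights and 0 to 2 with a library left out. The labels number the libraries of each condition 1 and 2, and the deviations of libraries with the same number had a correlation of -0.17. With 2 libraries per condition, this value cannot show whether the numbers pair them. A replicate block gave 36 called ABA genes, 22 with the fold rule, 19 loci, 2 pairs and 10334 genes in all, against 12042 without it, and of the genes beyond the 40 loci it ended the call of *UGT71B6* (Bra031310, adjusted p = 0.0501). The block with the numbers crossed between conditions, chosen after seeing the data, gave 45, 22, 21, 8 and 14317. Leaving out 1 library at a time turned the sign of 12 ABA genes, none of them called: log2 fold changes ran from -0.10 to 0.42 for *NCED9* (Bra035033), -0.072 to 0.47 for *CYP707A2* (Bra040762), -0.47 to 0.081 and -0.15 to 0.75 for *PYL7* (Bra000938, Bra003463), -0.045 to 0.14 and -0.086 to 0.13 for *ABI1* (Bra013945, Bra019121), -0.69 to 0.055 for *HAI2* (Bra030455), -0.036 to 0.14 for *SNRK2.3* (Bra036088), -0.17 to 0.14 for *ABF3* (Bra017621), -0.086 to 0.20 and -0.23 to 0.049 for *ABF4* (Bra001742, Bra022409) and -0.16 to 0.28 for *ABI5* (Bra005287). The causes were not tested. With a lone library in a condition, its spread is taken from the other condition. Fewer genes were then called over all tested genes as well, so the loss of calls was not particular to the ABA genes. Genes with few counts, such as *PYL2*, allow no firm size of change.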

Other observations

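Further lists of ABA genes, given as values only, also held called genes in both directions. Over all lists beyond the 40 loci, 43 of 65 tested genes were called (66.2%), 22 higher and 21 lower, against 40.6% of all tested genes, 20.1% higher and 20.5% lower. These lists, too, were chosen with earlier results of these data known. Among the other SnRK2 kinases, which ABA activates weakly or not at all in Arabidopsis, 5 of 11 tested genes rose and 0 fell, and the call of 1 of the 5, Bra006010 of *SNRK2.1*, was lost without 0D Ver replicate 1 (limma adjusted p = 0.077). *SNRK2.9* (Bra032188) had 47.1 and 39.1 normalized counts under 0D Ver and 160 and 244 under 35D Ver, a log2 fold change of 2.18 (SE 0.23, limma adjusted p = 0.000203). Of the AFP proteins, which bind ABI5 and dampen ABA responses, and the ubiquitin ligase KEG, 4 of 9 tested genes rose and 1 fell. The gene that fell, Bra004004 of *AFP1*, was not called without 0D Ver replicate 1 or 35D Ver replicate 2 (limma adjusted p = 0.102 and 0.0676), and Bra025400 of *AFP3*, which rose, was not called without 0D Ver replicate 2 (0.053). *AFP2* (Bra019706) had 14.7 and 7.32 normalized counts under 0D Ver and 42.1 and 56.5 under 35D Ver, a log2 fold change of 2.12 (SE 0.35, limma adjusted p = 0.00189). It had 15 and 6 deposited counts under 0D Ver and reached the 10 counts needed in 2 libraries only with the 35D Ver libraries. Its call, which is included in the numbers of called genes above, is therefore not independent support for an increase.

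Of the remaining group A bZIP factors, 0 of 7 tested genes were called by limma, against 40.6% of all tested genes. An unadjusted p below 0.05 was found for 1 of the 7, and their log2 fold changes lay between -0.35 and 0.31. Of the ABA transporters, against 20.1% higher and 20.5% lower over all tested genes, 1 of 4 tested genes rose and 1 fell. The latter, Bra016095 of *ABCG25*, was not called without 0D Ver replicate 1 or 35D Ver replicate 2 (limma adjusted p = 0.133 and 0.108). *ABCG40* (Bra026124), a plasma membrane importer of ABA, had 14.7 and 15.9 normalized counts under 0D Ver and 65.9 and 66.5 under 35D Ver, a log2 fold change of 2.05 (SE 0.23, limma adjusted p = 0.00027). *PYL11* (Bra025048), a receptor outside the 40 loci, had 2 and 1 deposited counts under 0D Ver. Under 35D Ver it had 42 and 40, and it was called higher (limma adjusted p = 8.83e-05). No fold is given because the 0D Ver counts lie at or near the lowest number of the tables. The gene reached the counts needed for testing only in the 35D Ver libraries. Its call, which is included in the number of called genes above, is therefore not independent support for an increase.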
